A study of Homo sapiens with 4 samples.

Results

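The genes described here are 48 named genes of the integrated stress response and of the amino acid supply that it governs, of which 47 are listed in the deposited table of 17472 genes. NUPR1, a stress-induced chromatin protein, is the 1 name that is not listed, and it was not analysed here. The members were chosen by symbol from what is known of the pathway, and with earlier results of these data known. They are grouped below by role into the eIF2 alpha kinases and phosphatase subunit, the transcription factors and regulators, other targets, the amino acid and one-carbon enzymes, the amino acid transporters and the cytosolic tRNA synthetases. All 47 passed the filter on low values (a normalised count of at least 10 in at least 2 libraries) and were tested.

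RNA came from H1, an established human embryonic stem cell line grown in E8, a defined medium with insulin, FGF2 and TGF-beta. The WT group is unmodified H1 (2 libraries). The MEK5DD group is an H1 line given a lentiviral MAP2K5 in which amino acids were changed to aspartate, and then selected with puromycin (2 libraries). MAP2K5 is the kinase that activates ERK5. No library of cells given lentivirus and puromycin without MAP2K5 is included, so delivery and selection cannot be told apart from MEK5DD in any result here. The labels describe 1 MEK5DD line and do not say whether replicates were separate cultures, so the p-values reflect only how far these libraries differ, a spread that may be technical.

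The integrated stress response begins with kinases that phosphorylate the translation factor eIF2 alpha when amino acids run short, when unfolded protein accumulates in the endoplasmic reticulum, or under other stresses. Bulk translation then slows, while ATF4 mRNA, which carries upstream open reading frames, is translated more. ATF4 pairs with C/EBP proteins at composite DNA elements and drives genes that make, import and charge amino acids onto tRNA. Because the first steps act on phosphorylation and translation, mRNA counts do not measure the activity of the pathway directly. Pluripotent stem cells grow fast and draw heavily on serine, glycine and methionine for nucleotides and methylation.

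The composite element is commonly written with the letters TGATGNAA, and these were searched on both strands of promoter windows from RefSeq (GRCh38.p14; 250 bases before to 50 bases after each transcript start). Windows were found for 38 of the 47 members. They were not found for GPT2, PYCR1, PSPH, SHMT2, SLC7A3, SLC7A11, LARS, VARS and YARS. Of the 38, 16 (42.1%) had the letters in at least 1 window, against 1217 of 27305 genes in the whole table (4.46%) and 1270 of 35116 windows (3.62%). Among the roles, 7 of 10 synthetases, 4 of 7 transporters and 3 of 10 enzymes held them, as did 0 of 3 genes for the eIF2 alpha kinases and phosphatase subunit. The members were chosen by symbol from what is known of the pathway, not by these letters. Known ATF4 targets are among them, so this share may in part describe how they were chosen, which was not tested. The sequences below show the match in its context for 13 of the 16, to be set beside their expression values. Each is 30 bases of the gene's own strand, 5′ to 3′, with the matching letters in capitals; TTNCATCA is the same element read on the other strand.
ASNS (chr7:97872458-97872487, minus strand): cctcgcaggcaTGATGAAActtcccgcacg
GARS (chr7:30594834-30594863, plus strand): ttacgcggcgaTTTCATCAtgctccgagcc
SLC3A2 (chr11:62881719-62881748, plus strand): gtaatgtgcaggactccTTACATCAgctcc
CEBPG (chr19:33374060-33374089, plus strand): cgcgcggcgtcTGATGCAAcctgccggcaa
CHAC1 (chr15:40953251-40953280, plus strand): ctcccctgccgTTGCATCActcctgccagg
MTHFD1L (chr6:150866346-150866375, plus strand): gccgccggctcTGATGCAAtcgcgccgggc
GOT1 (chr10:99430804-99430833, minus strand): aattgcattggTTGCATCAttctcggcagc
SLC1A5 (chr19:46784893-46784922, minus strand): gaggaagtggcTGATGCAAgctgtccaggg
AARS (chr16:70289675-70289704, minus strand): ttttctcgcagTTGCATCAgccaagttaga
IARS (chr9:92293692-92293721, minus strand): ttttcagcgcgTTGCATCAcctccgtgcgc
MARS (chr12:57488053-57488082, plus strand): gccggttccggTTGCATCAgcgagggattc
NARS (chr18:57621804-57621833, minus strand): tctacgctctcTGATGCAAcgccggaatcg
TARS (chr5:33440956-33440985, plus strand): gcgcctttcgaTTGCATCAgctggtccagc
The other matches were in CARS, SLC1A4 and SLC7A1. The ASNS match began 68 bases before the transcript start and that of GARS 33 bases before it. In SLC3A2, MTHFD1L, NARS, TARS and SLC7A1 the match lay just after the nearest start. A match is only a run of letters in a window, and binding was not measured here.

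A gene is called here when its Benjamini-Hochberg adjusted p, taken over all 15721 genes tested with limma on log2(normalised count + 1), is below 0.05. Of the 47 members 10 were called higher in MEK5DD and 0 were called lower (21.3% higher), while across all genes tested 7.69% were called higher and 6.47% lower. The share over all genes depends on the level of the genes taken. With only genes averaging 50 or more, 1169 of 12219 genes were called higher and 970 lower. Of the 45 members in that fit 10 were called higher and 1 lower. The members were chosen with earlier results of these data known, so the difference between these shares is only described and was not tested. The 10 were EIF2AK3 and PPP1R15A, ATF4, VLDLR, CTH, SLC7A5 and SLC3A2, and EPRS, WARS and GARS. Their folds ran from 1.15 (GARS) to 1.45 (EIF2AK3). The median log2 fold change of the members was 0.05, against -0.00 over all genes tested. In 21 members both MEK5DD values lay above both WT values (28.2% of all genes did so), in 8 both lay below (28.0% of all genes), and in 18 the groups overlapped. At an unadjusted p below 0.05 there were 16 members, 3 of them lower. The edgeR test on recovered reads, which called 14.7% of all genes, called the same number (10 higher, 0 lower), and DESeq2, which called 8.64% of all genes, called 5 higher and 0 lower. Without limma's mean-variance trend, which lets genes of like level share their spread, 0 members were called (7 at an unadjusted p below 0.05). Over all genes tested, that fit called 2.79%. Leaving out either WT replicate lowered the number of members called higher, and leaving out either MEK5DD replicate raised it. The number called over all genes moved in the same way, and each such fit leaves 1 library in a group.

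**Figure D1:**
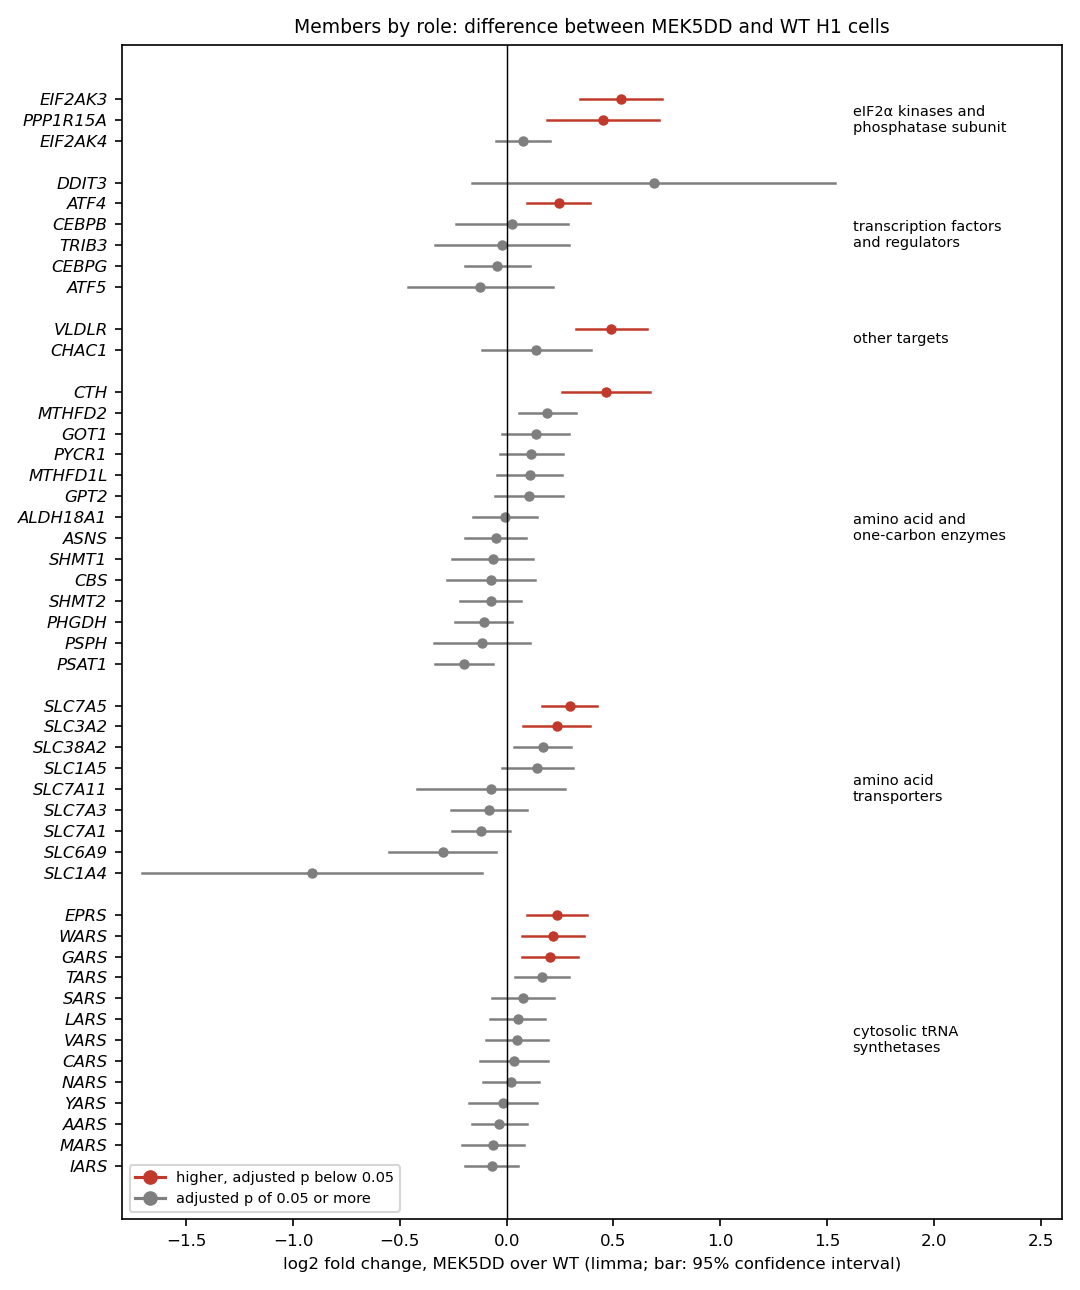
Log2 fold change of MEK5DD over WT for each of the 47 tested members, grouped by role, with 95% confidence intervals from limma (2 libraries per group). The 10 called members, in red, lie between 0.20 and 0.54, and the widest intervals belong to SLC1A4 and DDIT3, the members with the lowest counts.

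The library pairs bear on all of these calls. Libraries held 14908486 to 17628945 recovered reads. The MEK5DD pair differed more (chi-square per degree of freedom 6.11) than the WT pair (1.88). MAP2K5 itself was 344 and 315 in WT and 3382 and 3558 in MEK5DD. The pluripotency markers POU5F1, NANOG, SOX2, LIN28A, DNMT3B, TDGF1, SALL4 and DPPA4 were all present, with summed counts of 131416 and 128934 in WT and 134319 and 125194 in MEK5DD. Among them NANOG was called higher (log2 0.26, adjusted p = 0.0117) and SOX2 lower (log2 -0.20, adjusted p = 0.0437). Of 8 fibroblast markers 4 were listed (summed counts 7016 to 7111 in WT and 8106 to 8413 in MEK5DD, with COL1A1 and COL1A2 called higher). Most of these sums came from THY1 (5775 and 5704 in WT, 6214 and 6072 in MEK5DD), which was not called (log2 0.10). PDGFRB was not called either, and its MEK5DD values lay below WT (log2 -0.39). COL3A1, DCN, LUM and POSTN were not listed. Of 5 tested neuroectoderm markers 4 were called lower and NES higher, and their part in the results below was not tested. None of the 5 hepatic or endoderm markers, whose cell types are rich in amino acid enzymes, was listed. In bulk RNA, fewer cells of a type and less RNA per cell cannot be told apart.

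Of the genes for the eIF2 alpha kinases and phosphatase subunit, EIF2AK3 and PPP1R15A rose. EIF2AK3 (chr2:88556741-88627576, GRCh38 coordinates from GENCODE v29, minus strand) encodes PERK, the kinase of the endoplasmic reticulum membrane. Its normalised counts were 436 and 455 in WT and 665 and 629 in MEK5DD, so that both MEK5DD values lay well above both WT values (1.45-fold, log2 0.54, SE 0.09, adjusted p = 0.00172). This was the largest rise among the called members, and its log2 fold change ran from 0.50 to 0.58 with 1 library left out. Another listed gene, AC062029.1, overlaps EIF2AK3 on the opposite strand, and the strand setting of the counting was not stated. PPP1R15A encodes the stress-induced phosphatase subunit that reverses eIF2 alpha phosphorylation. It stood at 268 and 283 in WT and at 421 and 338 in MEK5DD (1.37-fold, log2 0.45, SE 0.12, adjusted p = 0.0263). The MEK5DD libraries were further apart from each other for this gene than the WT libraries were, and the call ended when WT replicate 1 was left out (adjusted p = 0.114) and when MEK5DD replicate 1 was (adjusted p = 0.0592). DESeq2 did not call it either (adjusted p = 0.0595). EIF2AK4 encodes GCN2, which senses uncharged tRNA, and was the most abundant of this role. Its counts were 4638 and 4631 in WT and 4864 and 4907 in MEK5DD. The log2 fold change was 0.08 with a 95% confidence interval of -0.05 to 0.20, so a change beyond 1.15-fold lies outside the interval.

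Among the 6 tested transcription factors and regulators ATF4 (chr22:39519695-39522685, plus strand) alone was called. Its counts were 6724 and 6562 in WT and 8348 and 7401 in MEK5DD (1.18-fold, log2 0.24, SE 0.07, adjusted p = 0.0312). The MEK5DD values did not overlap the WT values, but lay apart from each other by more than the lower of them lay above WT replicate 1. Leaving out WT replicate 1 (adjusted p = 0.212) or WT replicate 2 (adjusted p = 0.322) ended the call. ATF4 was the most abundant regulator per length, at 2642 normalised counts per kilobase of exon in WT and 3132 in MEK5DD. ATF5, a relative of ATF4 that is also controlled by translation, had 146 and 119 in WT and 125 and 117 in MEK5DD, and the groups overlapped (log2 -0.12, 95% confidence interval -0.46 to 0.22, adjusted p = 0.663).

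No other regulator was called. DDIT3, which encodes the pro-apoptotic factor CHOP, had 16.7 and 9.37 in WT and 21.8 and 19.9 in MEK5DD. Its log2 fold change was 0.69, but with an SE of 0.39 and a 95% confidence interval of -0.16 to 1.54 a difference was not detectable at this depth. Part of DDIT3 overlaps MARS on the opposite strand. If reads were counted without regard to strand, those from the shared part cannot be assigned to either gene. The strand setting was not stated in the sources used here. TRIB3, a pseudokinase induced by ATF4 and CHOP, had 170 and 140 in WT and 156 and 148 in MEK5DD, with both MEK5DD values between the WT values. CEBPB and CEBPG encode partners of ATF4. CEBPB had 264 and 241 in WT and 276 and 238 in MEK5DD (log2 0.02), and CEBPG had 1390 and 1361 in WT and 1326 and 1343 in MEK5DD (log2 -0.04, 95% confidence interval -0.20 to 0.11). ATF5 also overlaps another listed gene (NUP62), as CEBPB does an antisense RNA gene.

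Of the other targets, VLDLR rose and CHAC1 was not called. VLDLR (chr9:2621834-2660053, plus strand), a lipoprotein receptor gene reported to respond to PERK and ATF4, had 784 and 833 in WT and 1128 and 1142 in MEK5DD. The MEK5DD libraries were nearly equal and far above WT (1.40-fold, log2 0.49, SE 0.08, adjusted p = 0.00121), and the call held with each library left out. An antisense RNA gene, VLDLR-AS1, overlaps it. CHAC1, which encodes an enzyme that breaks down glutathione and is among the most responsive ATF4 targets, had 200 and 214 in WT and 230 and 225 in MEK5DD (1.10-fold, log2 0.14, 95% confidence interval -0.12 to 0.39, adjusted p = 0.487).

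**Figure D2:**
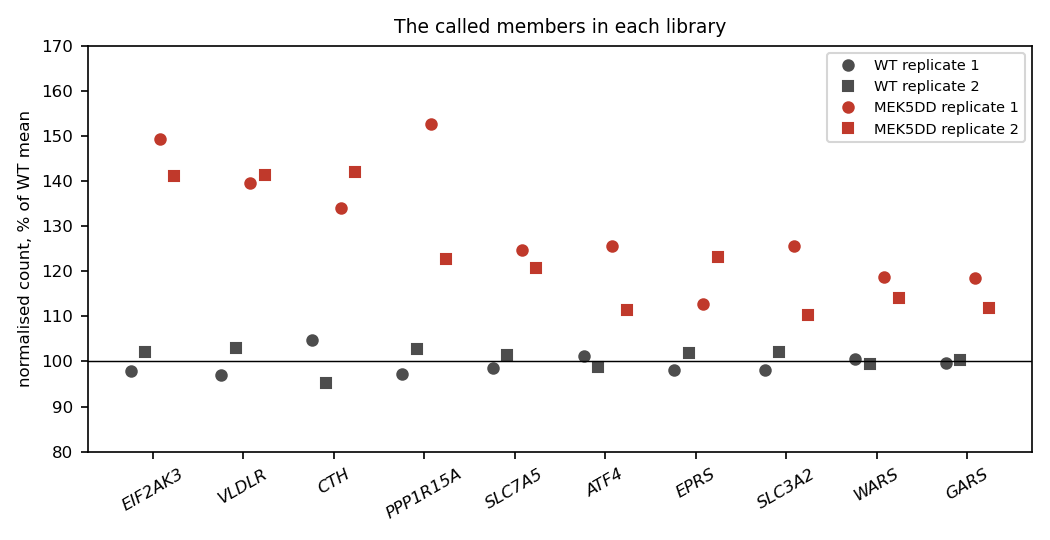
Normalised count of each of the 10 called members in each library, as a percent of its WT mean, in order of log2 fold change (circles, replicate 1; squares, replicate 2). The MEK5DD points lie above the WT points for all 10, and MEK5DD replicate 1 and replicate 2 stand apart most for PPP1R15A (421 and 338).

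No gene of the serine pathway was called higher, which for 5 genes is near the share of all genes called higher (7.69%). PHGDH, PSAT1 and PSPH carry out the 3 steps from glycolysis to serine, and SHMT1 in the cytosol and SHMT2 in mitochondria convert serine to glycine and pass a carbon to folate. None of these 5 was called in either direction by limma, edgeR or DESeq2, and 1 passed an unadjusted p of 0.05 in limma. All 5 had a log2 fold change below 0, from -0.20 (PSAT1) to -0.07 (SHMT1). The highest upper bound of their 95% confidence intervals was 0.12, so rises of the size seen for EIF2AK3 or CTH lie outside each interval.

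PHGDH, the gene of the first step, was the most abundant enzyme gene by count, at 9748 and 9526 in WT and 9307 and 8600 in MEK5DD (log2 -0.11, 95% confidence interval -0.24 to 0.03). PSAT1 had 6942 and 7131 in WT and 6381 and 5889 in MEK5DD, with both MEK5DD values below both WT values (0.871 of the WT level, log2 -0.20, SE 0.06, adjusted p = 0.0522). It therefore missed the threshold by little, and it was called lower with upper-quartile scaling (adjusted p = 0.0371) and with quantile normalisation (adjusted p = 0.00968). PSPH had 1142 and 1047 in WT and 1132 and 898 in MEK5DD, and MEK5DD replicate 1 lay within the WT range. SHMT2 (4059 and 4109 in WT, 4070 and 3692 in MEK5DD) showed the same arrangement, while for SHMT1 (891 and 916 in WT, 928 and 802 in MEK5DD) the MEK5DD libraries lay on either side of WT. In all 5 genes MEK5DD replicate 2 was the lowest of the 4 libraries, and the log2 fold changes of PSPH and SHMT1 turned to 0.050 and 0.038 without it. Without MEK5DD replicate 1 the log2 fold changes were -0.16 (PHGDH), -0.26 (PSAT1), -0.28 (PSPH), -0.17 (SHMT1) and -0.15 (SHMT2). Without MEK5DD replicate 2 the log2 fold changes still below 0 were -0.14 (PSAT1), -0.050 (PHGDH) and -0.0049 (SHMT2). Each of these fits rests on 1 MEK5DD library, and the first rests on the library that is lowest for all 5 genes.

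**Figure D3:**
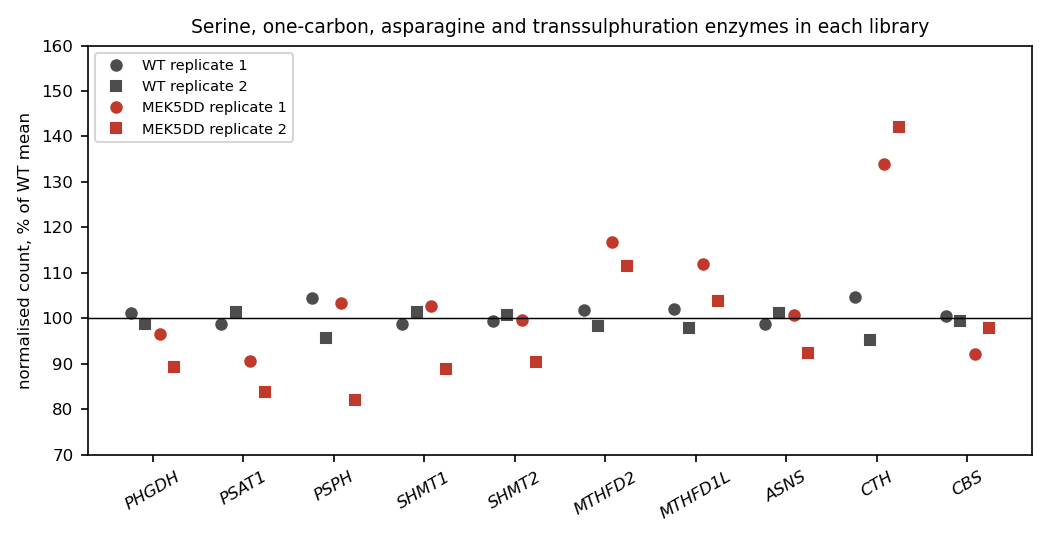
Normalised count of 10 enzyme genes in each library, as a percent of the WT mean (circles, replicate 1; squares, replicate 2). MEK5DD replicate 2 is the lowest point for the 5 serine and glycine genes on the left, while both MEK5DD points of CTH lie above WT (541 and 573 against 423 and 384).

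Next in the folate pathway, MTHFD2, which oxidises the folate-bound carbon, had 4524 and 4370 in WT and 5196 and 4958 in MEK5DD (1.14-fold, log2 0.19, SE 0.06, adjusted p = 0.0560), and MTHFD1L, which releases formate, had a log2 fold change of 0.11 (adjusted p = 0.355). Neither was called. MTHFD2 overlaps SLC4A5, and its groups did not overlap in value. ASNS, which makes asparagine and is a textbook ATF4 target, had 4192 and 4298 in WT and 4275 and 3920 in MEK5DD (log2 -0.05, 95% confidence interval -0.19 to 0.09). Its promoter sequence is the first of those printed above.

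CTH (chr1:70411218-70439851, plus strand) was the 1 enzyme gene called. It encodes the last enzyme of transsulphuration, which makes cysteine from cystathionine. Counts were 423 and 384 in WT and 541 and 573 in MEK5DD (1.38-fold, log2 0.46, SE 0.09, adjusted p = 0.00642). The WT values were further apart than the MEK5DD values, and the call was lost without WT replicate 2 (adjusted p = 0.0978). CBS, the enzyme gene of the preceding step, had 423 and 418 in WT and 387 and 412 in MEK5DD (log2 -0.07, adjusted p = 0.667). This value depends on how reads were shared with CBSL, a near-identical copy that is listed separately. CBSL had 386 and 409 in WT and 320 and 240 in MEK5DD and was called lower (log2 -0.52, SE 0.13, adjusted p = 0.0207). The sum of CBS and CBSL was 809 and 827 in WT and 707 and 652 in MEK5DD, 0.83 of the WT level, with no overlap between the groups. The direction thus opposed that of CTH for the sum, and the sum was not part of the test across genes.

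The remaining enzyme genes were not called. PYCR1 and ALDH18A1 make proline, and GPT2 and GOT1 are transaminases that interconvert glutamate with alanine and aspartate. Their log2 fold changes ran from -0.01 (ALDH18A1) to 0.14 (GOT1), and none was called. Over the 14 enzyme genes 1 was called higher and 0 lower (edgeR gave 1 and 0, and 3 passed an unadjusted p of 0.05 in limma, 1 of them lower), with a median of -0.03. Their summed counts were 41779 and 41323 in WT and 42319 and 39233 in MEK5DD, so that the WT values lay between the MEK5DD values. PSPH also has a listed pseudogene, PSPHP1, which held 16.1% of their joint count.

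Among 9 transporter genes 2 were called higher (22.2%, against 7.69% of all genes tested). These were SLC7A5 and SLC3A2, which encode the light and heavy chains of the same exchanger of large neutral amino acids. SLC7A5 (chr16:87830023-87869488, minus strand) had 4464 and 4595 in WT and 5643 and 5469 in MEK5DD (1.23-fold, log2 0.29, SE 0.06, adjusted p = 0.00603). Both MEK5DD values lay above WT by several times the distance between replicates. SLC3A2 had 3757 and 3909 in WT and 4810 and 4224 in MEK5DD (1.18-fold, log2 0.23, SE 0.07, adjusted p = 0.0474). Without WT replicate 1 and without WT replicate 2 the calls were lost for SLC7A5 (adjusted p = 0.180 and 0.0996) and for SLC3A2 (adjusted p = 0.394 and 0.220). SLC3A2 was also lost with upper-quartile scaling (adjusted p = 0.0524), quantile normalisation (adjusted p = 0.0837) and DESeq2 (adjusted p = 0.0807).

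SLC7A11 encodes the other light chain among the members that pairs with SLC3A2, the cystine importer. Its counts were 374 and 368 in WT and 284 and 438 in MEK5DD. The MEK5DD libraries lay on opposite sides of WT, and the ratio of replicate 1 to replicate 2 was 0.65, the lowest among the members. The log2 fold change was -0.07 over all 4 libraries, 0.24 without MEK5DD replicate 1 and -0.38 without MEK5DD replicate 2. SLC38A2, a neutral amino acid importer and the most abundant transporter gene by count and per length, had 9340 and 9793 in WT and 10376 and 11134 in MEK5DD (1.12-fold, log2 0.17, SE 0.06, adjusted p = 0.0903). SLC1A5, the glutamine importer gene, was not called (log2 0.14, adjusted p = 0.251). The importers of cationic amino acids SLC7A1 (log2 -0.12) and SLC7A3 (log2 -0.08) were not called, nor was the glycine transporter gene SLC6A9, with 299 and 304 in WT and 264 and 227 in MEK5DD (log2 -0.30, SE 0.12, adjusted p = 0.110). SLC1A4, which carries serine and alanine, was near the filter at 27.3 and 19.8 in WT and 10.9 and 13.0 in MEK5DD (log2 -0.91, 95% confidence interval -1.71 to -0.12, adjusted p = 0.124). At such counts the precision is low, and DESeq2 gave no adjusted p for SLC1A4 or for DDIT3.

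Of the 13 cytosolic tRNA synthetase genes 3 were called higher (23.1%, against 7.69% of all genes tested), by 1.15-fold to 1.18-fold. Both MEK5DD values lay above both WT values in 4 of the 13, as they did in 28.2% of all genes tested. EPRS charges tRNA with both glutamate and proline. It had 4714 and 4888 in WT and 5413 and 5914 in MEK5DD (1.18-fold, log2 0.24, SE 0.06, adjusted p = 0.0287). WARS, the tryptophan enzyme gene, which overlaps WDR25 on the opposite strand, had 1716 and 1698 in WT and 2025 and 1947 in MEK5DD (1.16-fold, log2 0.22, SE 0.07, adjusted p = 0.0478). GARS, the glycine enzyme gene, had 4500 and 4527 in WT and 5349 and 5046 in MEK5DD (1.15-fold, log2 0.20, SE 0.06, adjusted p = 0.0438). In each the groups did not overlap, and each call ended without WT replicate 1 (adjusted p from 0.363 to 0.412), without WT replicate 2 (adjusted p from 0.213 to 0.417), with quantile normalisation (adjusted p from 0.0769 to 0.0960) and with DESeq2 (adjusted p from 0.0505 to 0.132). With upper-quartile scaling GARS and WARS were also lost (adjusted p = 0.0614 and 0.0643).

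The other 10 synthetases were not called. TARS, the threonine enzyme gene, was nearest, with 4833 and 4774 in WT and 5345 and 5440 in MEK5DD (log2 0.17, SE 0.06, adjusted p = 0.0801). IARS, the isoleucine enzyme gene and the highest by count, had 7470 and 7382 in WT and 7000 and 7157 in MEK5DD (log2 -0.07, adjusted p = 0.477), with both MEK5DD values below WT. AARS, CARS, LARS, MARS, NARS, SARS, VARS and YARS had overlapping groups and log2 fold changes from -0.06 to 0.08. No synthetase moved by more than 0.24 on the log2 scale, and the confidence intervals of all 13 lay between -0.21 and 0.38. Their summed counts were 57702 and 56910 in WT and 60070 and 59163 in MEK5DD, 1.04 times the WT level. As a share of recovered reads the synthetases held 0.367% to 0.372% in WT and 0.377% in both MEK5DD libraries.

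Levels were then compared between genes per kilobase of exon (union of GENCODE v29 exons; the authors' own annotation was not stated). PSAT1 was the highest member in WT at 3216 normalised counts per kilobase, followed by ATF4 at 2642, SLC38A2 at 1449 and AARS at 1445. In MEK5DD the order of the first pair turned, with ATF4 at 3132 and PSAT1 at 2804. SLC38A2 and AARS were too close in WT to be ordered beyond their spread. Synthetases ranged in WT from 160 (CARS) to 1445 (AARS), and CARS and WARS (268) stood below the other 11. At the low end were SLC1A4 at 3.39, DDIT3 at 9.99 and SLC7A11 at 38.5.

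**Figure D4:**
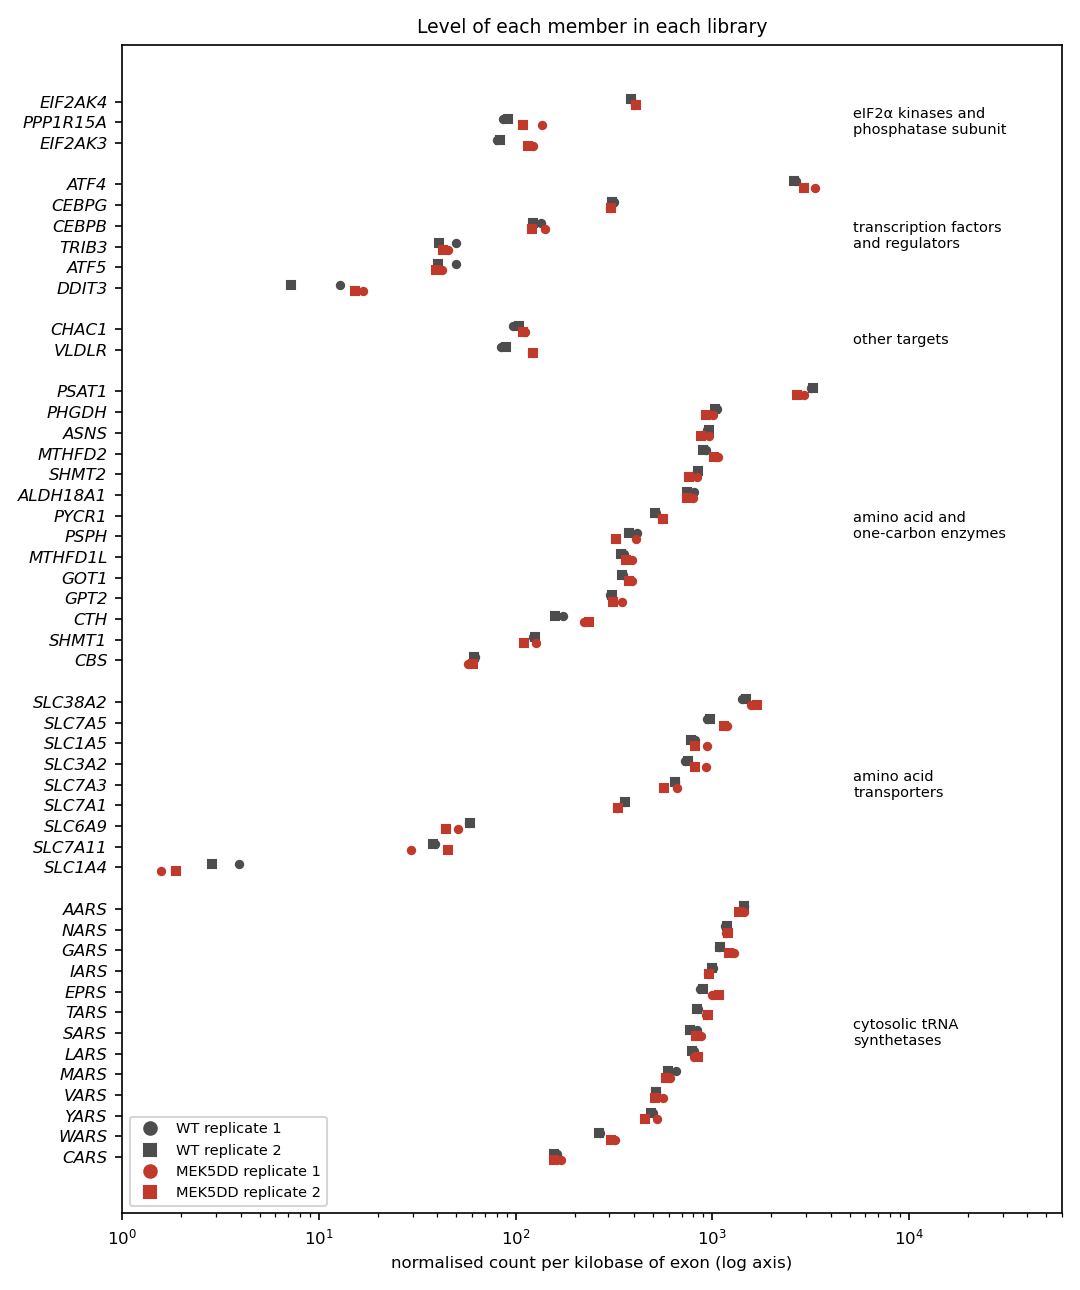
Normalised count per kilobase of exon of each member in each library on a log axis, by role (circles, replicate 1; squares, replicate 2; dark grey, WT; red, MEK5DD). Levels span from 3.39 (SLC1A4) to 3216 (PSAT1) in WT means, far more than the distance between the groups for any member.

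The promoter matches and the calls were then set side by side. Of the 16 members with the letters, 2 were called higher (GARS and SLC3A2), and their median log2 fold change was 0.03. Of the 22 with a window and no match, 8 were called higher, with a median of 0.12. The members whose promoters are printed above thus included ASNS, CHAC1, CEBPG and AARS, none of which was called, whereas EIF2AK3, VLDLR and CTH, the 3 largest rises among called members, had no match in these windows. The difference between these sets was not tested, and no match says only that the letters are not in these windows.

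Other genes of the pathway were taken from 8 lists, which were also chosen with earlier results of these data known. The counts below stand beside 7.69% of all genes tested called higher and 6.47% called lower. Without the mean-variance trend GDF15 and CDKN1A were the only genes of these lists still called (adjusted p = 0.0285 and 0.0273). Among 15 other regulators of eIF2 signalling 3 were called higher and 0 lower (6 at an unadjusted p below 0.05, none of them lower; median 0.13). They were DNAJC3, which encodes an inhibitor of eIF2 alpha kinases (log2 0.36), IMPACT, an inhibitor of GCN2 activation (log2 0.35), and PPP1R15B, the constitutive partner of the same phosphatase as PPP1R15A (log2 0.26). All 3 were lost without WT replicate 1 (adjusted p from 0.160 to 0.283), and DNAJC3 and PPP1R15B also without WT replicate 2 (adjusted p = 0.0843 and 0.354). XBP1 and ATF6 targets, which make up the other arms of the unfolded protein response, had 2 of 17 called higher and 0 lower (median 0.11). These were XBP1 (1.27-fold, lost without WT replicate 2, adjusted p = 0.197) and the chaperone gene HSPA5 (1.17-fold, lost without WT replicate 1 and replicate 2, adjusted p = 0.298 and 0.307).

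Other ATF4-linked targets had 7 of 15 tested members called higher (46.7%, against 7.69% of all genes tested) and 1 lower. This was the largest share of the 8 lists. The lists were chosen with earlier results of these data known, so it is not independent support. The median was 0.12. DESeq2 called 5 higher and 0 lower. Without WT replicate 1, SESN2, STC2 and HERPUD1 were lost (adjusted p = 0.0612, 0.399 and 0.0538), which left 4 of the 7. Leaving out WT replicate 2 ended the calls of STC2 and HERPUD1 (adjusted p = 0.346 and 0.175), and leaving out MEK5DD replicate 1 ended that of HERPUD1 (adjusted p = 0.109). The largest were the stress cytokine gene GDF15 (107 and 94.8 in WT, 287 and 268 in MEK5DD; 2.73-fold), the cell cycle inhibitor gene CDKN1A (646 and 624 in WT, 1416 and 1406 in MEK5DD; 2.22-fold) and the transcription factor gene ATF3 (299 and 314 in WT, 456 and 477 in MEK5DD; 1.52-fold). All 3 were called with each library left out, and all 3 are also induced by other stress pathways, GDF15 and CDKN1A being targets of p53. VEGFA, named after its value was seen as the 1 fall, had a log2 fold change of -0.32 and was lost when WT replicate 1 (adjusted p = 0.100) or WT replicate 2 (adjusted p = 0.326) was left out. No member of the 47 moved as far as GDF15 or CDKN1A.

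Synthetase genes outside the members gave 1 call. Of 10 other cytosolic synthetase and complex genes 1 was called higher, the scaffold gene AIMP1 (log2 0.26, lost on leaving out WT replicate 1 or 2, adjusted p = 0.372 and 0.274). Of 17 mitochondrial synthetase genes 0 were called by limma, edgeR or DESeq2 (1 at an unadjusted p below 0.05 in limma, lower; median 0.02). NRF2 targets, several of which serve glutathione synthesis as SLC7A11 and CTH do, had 3 of 11 tested called higher and 0 lower. They were the quinone reductase gene NQO1 (537 and 527 in WT, 1140 and 942 in MEK5DD; 1.95-fold), ME1 (1.60-fold) and the glutamate-cysteine ligase gene GCLC (1.32-fold, lost without WT replicate 2, adjusted p = 0.101).

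Further amino acid and one-carbon enzymes included falls. Of 19 tested 1 was called higher and 3 lower (median 0.01). MAT2A, which makes the methyl donor S-adenosylmethionine, had 2316 and 2309 in WT and 1606 and 1736 in MEK5DD (0.722 of the WT level, log2 -0.47, SE 0.07, adjusted p = 0.000788). MAT2A was called with each library left out. Of 17 other amino acid transporter genes 0 were called higher and 1 lower, SLC7A8, another light chain that pairs with SLC3A2 (3729 and 3771 in WT, 2992 and 3021 in MEK5DD; log2 -0.32, adjusted p = 0.00417, lost without WT replicate 1 and replicate 2, adjusted p = 0.0868 and 0.118). At an unadjusted p below 0.05 there were 7 of these transporters, 5 of them lower. SLC7A5 and SLC7A8 thus differed from WT in opposite directions, and a test of that difference was not run.

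**Figure D5:**
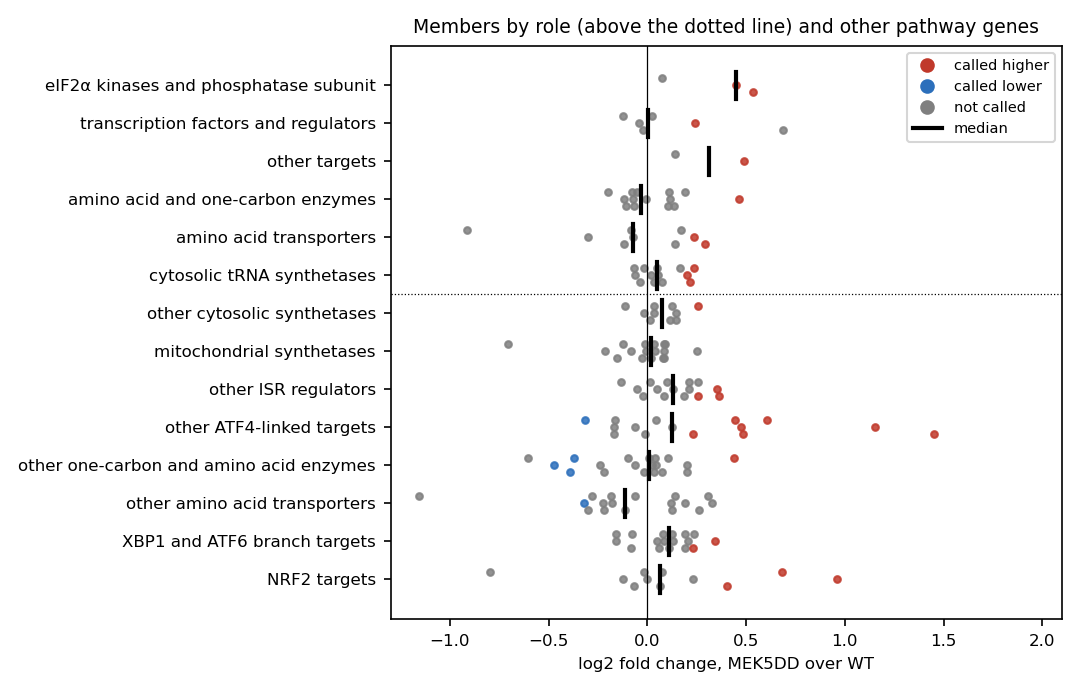
Log2 fold change of MEK5DD over WT for each tested gene of the 6 roles of members (above the dotted line) and of the 8 other pathway lists (below it), coloured by call, with the median of each row as a black bar. Role medians run from -0.07 (transporters) to 0.45 (eIF2 alpha kinases and phosphatase subunit), and GDF15 and CDKN1A, at 1.45 and 1.15, lie beyond every member.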

How the data were processed

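Per the labels' protocols, libraries of poly(A) RNA were read from both ends on an Illumina instrument. The deposited table holds signal values: gene counts that the authors divided by 1 size factor per library, as inferred from the values. In each library 100% of values were whole multiples of the smallest value (within 0.001), which gave back whole reads. Named in the submitters' processing notes are featureCounts 1.5.3, STAR, Trimmomatic 0.36, hg38 and DESeq2 1.26.0. Every listed gene has reads in all 4 libraries, so a gene at 0 in any of them is not analysed here.

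The main test was limma 3.58.1 (R 4.3.3) with a mean-variance trend on log2(normalised count + 1), over 15721 genes with at least 10 in at least 2 libraries. It calls 14.2% of genes in either direction. All tests are two-sided. Folds are taken after the pseudocount and so are too small for low genes. Tried as alternatives were different filters, pseudocounts, variance models and scalings, leaving out each library, a replicate term and, added after the data were seen, edgeR 4.0.16 (2306 genes called) and DESeq2 1.42.0 on recovered reads. The procedure was tested on simulated data. The simulated folds were larger than that of any called member, so this test does not bear on the member calls.

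The members and lists were chosen with earlier results of these data known. Genes were named by role: ATF4, ATF5, DDIT3, called members, the most abundant of each role and up to 3 called genes per list. Further members were described to account for all 47. Some called genes of the list of further amino acid and one-carbon enzymes are counted but not reported here by name. Coordinates are from GENCODE v29 and promoters from RefSeq (GRCh38.p14), of the same assembly as hg38.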

Additional observations from a re-analysis of the deposited data

How the results depend on the processing

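Of the 10 called members, EIF2AK3 and VLDLR kept their call with each library left out, and none kept it without the mean-variance trend. The count of called genes was 2226 over all genes, 439 without the trend (adjusted p of the called members from 0.0654 to 0.278), 1358 with DESeq2 and 1160 to 4629 with 1 library left out. The lowest, 1160, was without WT replicate 2 and the highest without MEK5DD replicate 2; it was 1196 without WT replicate 1 and 3743 without MEK5DD replicate 1. Members called higher numbered 0 without the trend, 5 with DESeq2, 6 with quantile normalisation and 3 to 16 with 1 library left out (3 without either WT library, 12 without MEK5DD replicate 1 and 16 without MEK5DD replicate 2). Members called lower, 0 in the reported fit, numbered 1 with only genes averaging 50 or more, 1 with upper-quartile factors, 1 with robust empirical Bayes, 2 with quantile normalisation and 0 to 6 with 1 library left out. With replicate number as a block, 3349 genes, 13 higher members and 1 lower member were called; the numbers are not known to pair samples (correlation of deviations 0.05), and no call of a member was lost. Fewer libraries or other scalings turned the sign of some uncalled members. With quantile normalisation NARS was -0.048. With 1 library left out the log2 fold change ranged from -0.27 to 0.026 for ATF5, -0.082 to 0.13 for CEBPB, -0.16 to 0.12 for TRIB3, -0.11 to 0.010 for ASNS, -0.28 to 0.050 for PSPH, -0.17 to 0.038 for SHMT1, -0.065 to 0.052 for ALDH18A1, -0.38 to 0.24 for SLC7A11, -0.19 to 0.028 for SLC7A3, -0.072 to 0.0015 for AARS, -0.027 to 0.10 for CARS, -0.0011 to 0.042 for NARS, -0.12 to 0.086 for YARS and -0.019 to 0.12 for VARS. The cause of these shifts was not tested. A fit without 1 library leaves 1 sample in that group and assumes that it varies like the other group. No called member changed sign under any alternative run, and depth limits chiefly DDIT3 and SLC1A4.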

Other observations

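Replicates of the MEK5DD line differed in a shared way for mitochondrial synthetases: 16 of 17 had a higher normalised count in MEK5DD replicate 1 than in replicate 2, against 52.2% of all genes tested. In WT the same comparison gave 9 of 17, and 50.4% of all genes. Among the members 32 of 47 were higher in MEK5DD replicate 1, including 11 of 14 enzyme genes and all 5 serine and glycine genes. Much of this tilt was also present in WT, except for the serine and glycine genes. There 29 of 47 members, 9 of 14 enzyme genes and 2 of 5 serine and glycine genes were higher in replicate 1. These counts describe 1 pair of libraries in each group, and their cause was not tested.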
